A study of Rattus norvegicus with 2 samples.

Results

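The Arp2/3 complex subunits were examined as 9 genes, Actr2, Actr3, Arpc1a, Arpc1b, Arpc2, Arpc3, Arpc4, Arpc5 and Arpc5l, chosen by name and matched through their RefSeq accessions. All 9 were listed in both libraries, among 9894 genes listed in either one. The neurons came from cortical tissue of E16 Sprague-Dawley rats, in which E16 stands for embryonic day 16, and were cultured for 48 h. Dissociated cells had received either the Scramble control plasmid or an RNAi plasmid coding for a PIWIL1 siRNA, both by electroporation, and were kept in Neurobasal medium with serum and B27. No sorting of transfected cells is described for these cultures. RNA of each culture gave 1 digital gene expression library, in which transcripts are cut at CATG sites and counted as tags of 21 bases. The labels do not say which PIWIL1 siRNA was used, and Piwil1 itself had no listed value by its symbol, so its knockdown was not checked here.

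The Arp2/3 complex starts a new actin filament as a branch on the side of an existing one. Arp2 (gene Actr2) and Arp3 (gene Actr3) resemble actin and form the first subunits of the branch, ArpC2 and ArpC4 form the core that holds them and binds the mother filament, ArpC1 and ArpC5 help to join Arp2 to that core, and ArpC3 sits beside Arp3. Mammals have alternative genes for ArpC1 (Arpc1a and Arpc1b), ArpC5 (Arpc5 and Arpc5l) and Arp3 (Actr3 and Actr3b). The complex is inactive until nucleation promoting factors of the WASP, WAVE and WASH families bind it. In neurons it is known from growth cones, filopodia and lamellipodia, and from the migration of young cortical cells. The deposited annotation gave the component term actin cytoskeleton to 8 of the 9 genes and the term cell leading edge to 3.

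The tag with the most copies of each subunit is shown, because these tags carry most of what was counted for the complex. Capitals mark the CATG cut site, and the site number counts such sites from the 3′ end of the transcript.
Actr2, site 2: CATGgtgttcttgggtggcgc
Actr3, site 1: CATGggacttggcgtgcactc
Arpc1a, site 2: CATGaggaacgggactgagca
Arpc1b, site 1: CATGctggggaggagggaaag
Arpc2, site 1: CATGttgcaccttctccaggt
Arpc3, site 1: CATGgtcagcatcgcattgag
Arpc4, site 2: CATGctcgctgtctctgattc
Arpc5, site 1: CATGgcctctcaatctctttg
Arpc5l, site 1: CATGgtgataccacagctatg
They held 70.1% of the copies of the 9 genes in the control library and 68.1% in the RNAi library. For 6 of the 9 genes the most copied tag lay at the site nearest the 3′ end, as it did for 68.2% of all genes. Altogether the subunits had 60 tags, of which 42 were listed in both libraries. A further 7 were listed only in the control library and 11 only in the RNAi library, none with more than 4 copies. Neither table holds tags with a single copy.

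Related subunits could be told apart at their tags. The pairs below were found by comparing all tags of paired genes, and they are shown because they come from matching positions of related transcripts. Capitals here mark the bases that differ, and positions are counted from 1 at the first base of the tag.
Arpc1a, site 3: catgaCAatctgggatTtCaa
Arpc1b, site 2: catgaGCatctgggatGtGaa
Arpc5, site 4: catgaaaaggcACtTgctgCt
Arpc5l, site 2: catgaaaaggcTTtAgctgTt
Actr3, site 5: catgcagcgGtaTgcAgtctg
Actr3b, site 3: catgcagcgCtaCgcCgtctg
The Arpc1 tags differed at 4 positions (C6G, A7C, T17G and C19G), the Arpc5 tags also at 4 (A12T, C13T, T15A and C20T), and the Arp3 tags at 3 (G10C, T13C and A16C). No tag of the 9 subunits was closer than 3 differences to a listed tag of any other gene. The gene table of the GRCr8 assembly also names 9 pseudogenes after these subunits, 4 of them after Arpc5l and 2 after Arpc1b. Transcripts of such copies could carry the same tags, so the values of Actr2, Actr3, Arpc1a, Arpc1b and Arpc5l are uncertain to that extent.

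Levels are given in TPM, which here means copies scaled to a library of 1000000 clean tags. A tag count does not grow with transcript length, so TPM of different subunits can be set side by side, although genes differ in how well their sites are cut and read. Arpc4, Arpc3 and Arpc2 were the most abundant. In the control library Arpc4 had 261.89 TPM (95% exact confidence interval 245 to 280), Arpc3 had 223.51 TPM (208 to 240) and Arpc2 had 215.54 TPM (200.2 to 232). Below them came Arpc1a at 96.55 TPM, Arpc5l at 79.42 TPM, Arpc5 at 78.54 TPM, Actr3 at 71.75 TPM and Actr2 at 49.31 TPM. Arpc1b was lowest, at 25.10 TPM (20.05 to 31.0), so the most and least abundant subunits stood 10.4-fold apart. Neighbours whose intervals overlapped, and whose order is therefore not shown by these counts, were Arpc3 and Arpc2, and each step from Arpc1a to Arpc5l, Arpc5 and Actr3.

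In the RNAi library Arpc4 (224.92 TPM) and Arpc3 (202.52 TPM) again led, and Arpc1b (13.02 TPM) was again last. Arpc2 had 125.63 TPM there and no longer stood with the other abundant subunits. Its interval (114 to 138 TPM) lay below that of Arpc3 (187 to 218 TPM) and overlapped that of Arpc1a, which had 108.68 TPM. The remaining levels were 80.52 TPM for Arpc5l, 55.70 TPM for Actr2, 51.46 TPM for Actr3 and 44.50 TPM for Arpc5. The highest and lowest subunits stood 17.3-fold apart. All intervals and tests here cover counting error only, because neither condition was replicated, and they leave out variation between cultures and libraries. They also treat the copies as independent counts. Tags were amplified before they were counted and carry no molecular identifiers, so the intervals may be too narrow even for counting error.

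**Figure D1:**
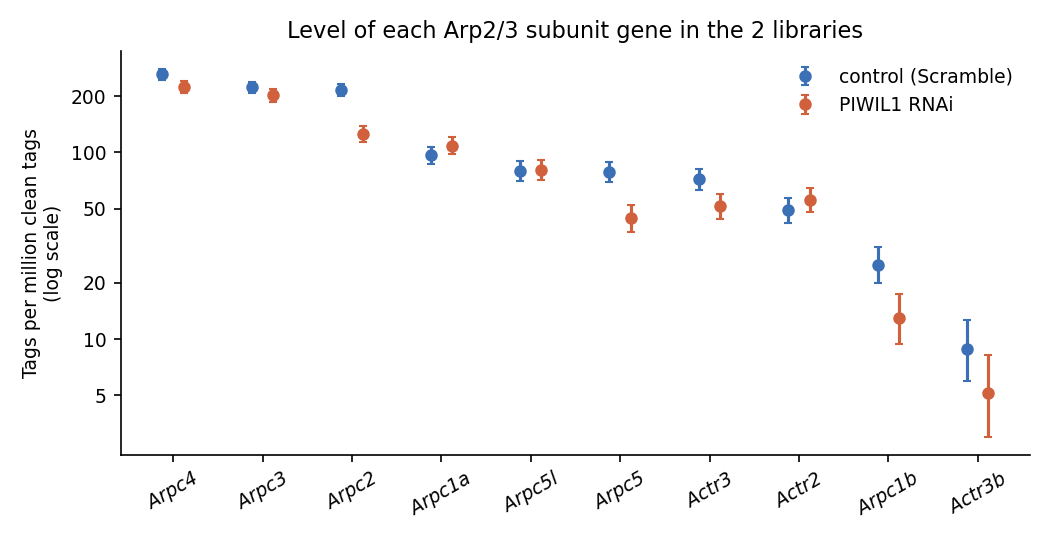
Level of each subunit gene and of Actr3b in TPM (log axis), with 1 point per library and bars for the exact 95% counting interval; blue is the control library and orange the PIWIL1 RNAi library. The intervals of Arpc2 (215.54 and 125.63 TPM), Arpc5 (78.54 and 44.50 TPM) and Arpc1b (25.10 and 13.02 TPM) do not overlap between the libraries. Neither do those of Actr3 (71.75 and 51.46 TPM) and Arpc4 (261.89 and 224.92 TPM). The points of Arpc5l (79.42 and 80.52 TPM) lie together.

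The study asked which mRNAs change when PIWIL1 is knocked down, and each condition had 1 library, so no difference could be checked in replicates. Fisher's exact test on the copies, adjusted over all genes (FDR), therefore compares these 2 libraries and not the conditions. The thresholds were those of the study, an FDR of at most 0.05 together with a log2 ratio of 0.58 or more in either direction. A gene past both is said to be called. The paper does not name its test, and at these thresholds it reported more lower and fewer higher genes than were called here. In these libraries Arpc2, Arpc5 and Arpc1b were called lower in the RNAi library, and no subunit was called higher. Among all 9894 genes 591 (5.97%) were called lower and 293 (2.96%) higher. With edgeR's TMM factors the numbers were 459 and 398, and with DESeq2's size factors 475 and 382, so the share of higher calls went from 33.1% to 46.4% and 44.6%, while the same 3 subunits were called. All subunits had at least 128 copies over both libraries, and among the 4692 genes with at least 100 copies 397 (8.46%) were called lower.

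Arpc2, a core subunit in contact with the mother filament, had 730 copies in the control library and 415 in the RNAi library. The RNAi level was 0.583 of the control level, a log2 ratio of -0.78 (95% interval from -0.96 to -0.60) with an FDR of 4.17e-16 in Fisher's exact test. Arpc5, a gene of the smallest subunit, had 266 and 147 copies, a log2 ratio of -0.82 (-1.12 to -0.52, FDR 1.23e-06 by Fisher's exact test). Arpc1b, which is the ArpC1 gene best known from blood and immune cells, had 85 and 43 copies, a log2 ratio of -0.95 (-1.51 to -0.40, FDR 0.00534 by Fisher's exact test). The 3 genes were thus at between 0.519 and 0.583 of their control level. Of the 4692 genes with at least 100 copies, 2.13% had a lower log2 ratio than Arpc1b, 3.86% a lower one than Arpc5 and 4.56% a lower one than Arpc2.

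Actr3, the Arp3 gene, had 243 copies in the control library and 170 in the RNAi library, a log2 ratio of -0.48 (-0.77 to -0.19, FDR 0.0133 by Fisher's exact test), which did not reach the ratio threshold. Arpc4, the other core subunit, had 887 and 743 copies and a log2 ratio of -0.22 (-0.36 to -0.08, FDR 0.0434 by Fisher's exact test), also short of it. Counting these, 5 of the 9 subunits had an FDR of 0.05 or less, against 16.7% of all genes in either direction. The share over all genes includes genes with few copies, whereas every subunit had at least 128, so it is not matched in depth. With TMM factors or DESeq2 size factors the log2 ratio of Arpc4 was -0.13 and its FDR was above 0.05, so the count depends on the scaling. The intervals of the 4 subunits outside these 5 included 0. Arpc3 had 757 and 669 copies (log2 ratio -0.14, -0.29 to 0.01) and Arpc5l had 269 and 266 copies (0.02, -0.23 to 0.27). Actr2, the Arp2 gene, had 167 and 184 copies (0.18, -0.13 to 0.49), and Arpc1a had 327 and 359 copies (0.17, -0.05 to 0.39). In all, 6 of the 9 subunits had a log2 ratio below 0, as did 56.7% of the 8899 genes listed in both libraries. The median log2 ratio was -0.22 for the subunits and -0.085 for those genes.

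The subunits did not share one ratio within counting error. Of the 36 pairs among the 9 genes, 22 had a difference in log2 ratio whose exact 95% interval left out 0. The pairs reuse the same 9 ratios. The share among pairs of other genes was not computed, so the count cannot be called particular to the subunits. Between Arpc2 and Arpc3, which had nearly equal copies in the control library, the difference was 0.64 (0.40 to 0.87), and between Arpc2 and Arpc4 it was 0.56 (0.33 to 0.79). These differences depended on the tags. With the median ratio of each tag end taken out, as described below, the log2 ratios were close, at -0.28 for Arpc2, -0.24 for Arpc3 and -0.31 for Arpc4. Without the most copied tag of each gene they were -0.15, -0.48 and 0.82. Arpc1b, Arpc2 and Arpc5 did not differ from one another beyond the 95% intervals, and neither did Actr2, Arpc1a and Arpc5l among themselves. These were not separate groups. Actr3 did not differ from Arpc1b, Arpc2, Arpc5 or Arpc4 beyond the intervals, nor did Arpc3 from Arpc4, Actr2 or Arpc5l.

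The copies of a gene can be followed tag by tag, and the 9 subunits had 29 tags with at least 20 copies over both libraries. Of these, 20 (69.0%) were lower in the RNAi library, against 55.3% of 16021 such tags of all genes. The interval lay below 0 for 9 of the 29 tags and above 0 for 2. The ratio of a tag also went with its last bases. Over all such tags the median log2 ratio was -0.64 for tags ending in tg and -0.64 for tags ending in gt, against -0.05 for all tags. Tags ending in long runs of A lay on the other side, with medians of 0.93 for 8 A and 1.52 for 11 A. No subunit tag ended in more than 5 A.

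**Figure D2:**
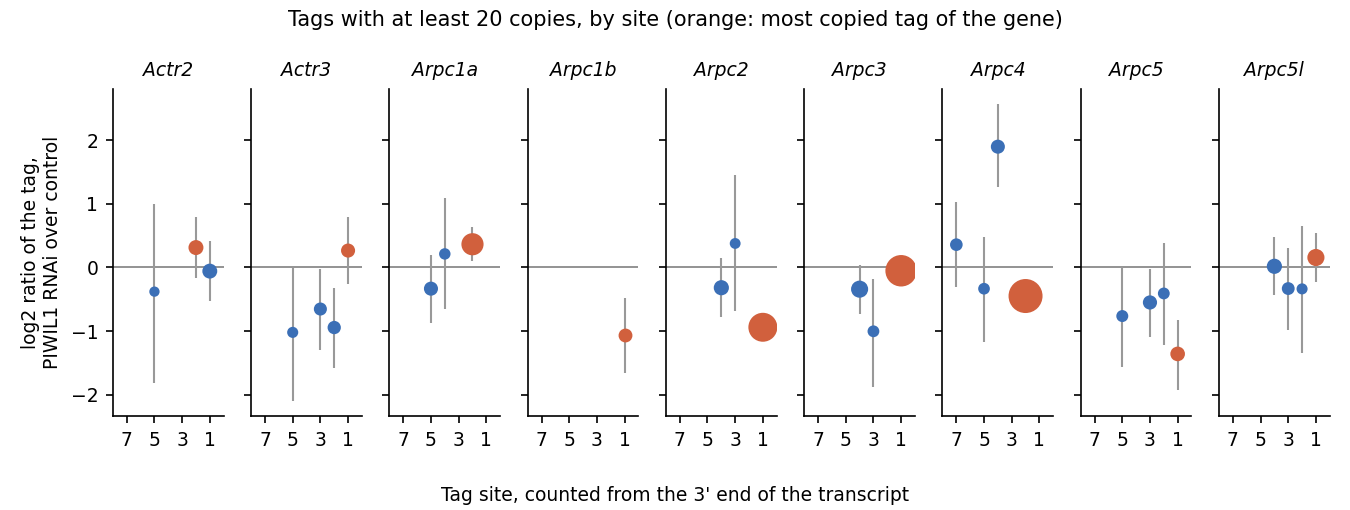
Log2 ratio (PIWIL1 RNAi over control) of each subunit tag with at least 20 copies, with 1 panel per gene and the site counted from the 3′ end on the horizontal axis; points grow with copies, orange marks the most copied tag and grey lines are exact 95% counting intervals. The 4 tags of Arpc5 all lie below 0, the most copied tags of Arpc2 (-0.94) and Arpc4 (-0.45) lie below 0, and the site 4 tag of Arpc4 (1.90) stands above every other point.

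For Arpc5, each of the 4 tags that reached 20 copies had fewer of them with RNAi. The site 1 tag, which ends in tg, went from 105 to 40 copies (log2 ratio -1.36), the site 3 tag from 78 to 52 (-0.55), the site 5 tag from 40 to 23 (-0.76) and the site 2 tag from 34 to 25 (-0.41). Without the site 1 tag the gene had 161 and 107 copies and a log2 ratio of -0.55 (-0.92 to -0.19), no longer called (FDR 0.116 by Fisher's exact test). For Arpc2 the site 1 tag shown above, which ends in gt, held 84.0% of the control copies and went from 613 to 312 (log2 ratio -0.94, -1.14 to -0.74). Its next tag, at site 4, went from 92 to 72 copies (-0.32, -0.78 to 0.14), and its site 3 tag from 15 to 19. All tags but the first together had 117 and 103 copies (-0.15, -0.54 to 0.25; FDR 0.982 by Fisher's exact test). For Arpc5 the interval of the site 1 tag lay well below 0 (-1.92 to -0.82) and that of site 3 just below it (-1.08 to -0.02). Those of site 5 (-1.57 to 0.01) and site 2 (-1.21 to 0.38) included 0. The fall of Arpc2 therefore rested on 1 tag. The call of Arpc5 also needed its site 1 tag, although its other tags together remained lower.

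Arpc1b was read almost entirely from 1 tag, at the site nearest the 3′ end, which held 95.3% of its control copies and went from 81 to 38 copies (log2 ratio -1.06, -1.65 to -0.48). That tag ends in ag, an end with a median log2 ratio of 0.13. The other Arpc1b tags had 4 and 5 copies in all, too few to show a change. For Arpc1a the most copied tag went from 215 to 270 copies (0.36, 0.10 to 0.63) and the site 5 tag from 71 to 55 (-0.33, -0.87 to 0.20).

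The other subunits were also read tag by tag. All 3 Arpc3 tags that reached 20 copies were lower. The most copied tag was nearly level, at 577 and 543 copies (log2 ratio -0.05, -0.22 to 0.12), while the site 3 tag went from 39 to 19 copies (interval -1.87 to -0.18) and the site 4 tag from 135 to 104 (-0.34, -0.72 to 0.04). For Arpc5l the intervals of all 4 tags included 0, with 83 and 82 copies at site 4 and 49 and 38 at site 3. For Actr2 the tags of site 1 (80 and 75 copies) and site 2 (71 and 86 copies) lay on either side of 0, and both intervals included it.

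When the median ratio of each tag end was taken out of the copies, Arpc1b (log2 ratio -1.09) and Arpc5 (-0.72) were still called lower and Arpc2 (-0.28, FDR 0.0404 by Fisher's exact test) was not, with 3.75% of all genes called lower. The log2 ratio of Arpc5l, whose most copied tag also ends in tg and went from 115 to 125 copies, was 0.22 after the same correction. The corrected values of the other subunits were -0.45 for Actr3, -0.31 for Arpc4, -0.24 for Arpc3, 0.02 for Arpc1a and 0.16 for Actr2. Without the most copied tag of every gene, 3.01% of genes were called lower and 1.54% higher. Then Actr3 was the subunit called lower (log2 ratio -0.82) and Arpc4 the one called higher (0.82), and the copies left for Arpc1b, Arpc2 and Arpc5 gave no call. Replicates would have shown how far cultures vary, and where edgeR's exact test was given an assumed coefficient of variation of 0.1 in their place, Arpc2 was the 1 subunit called, and 1.72% of genes were called lower.

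**Figure D3:**
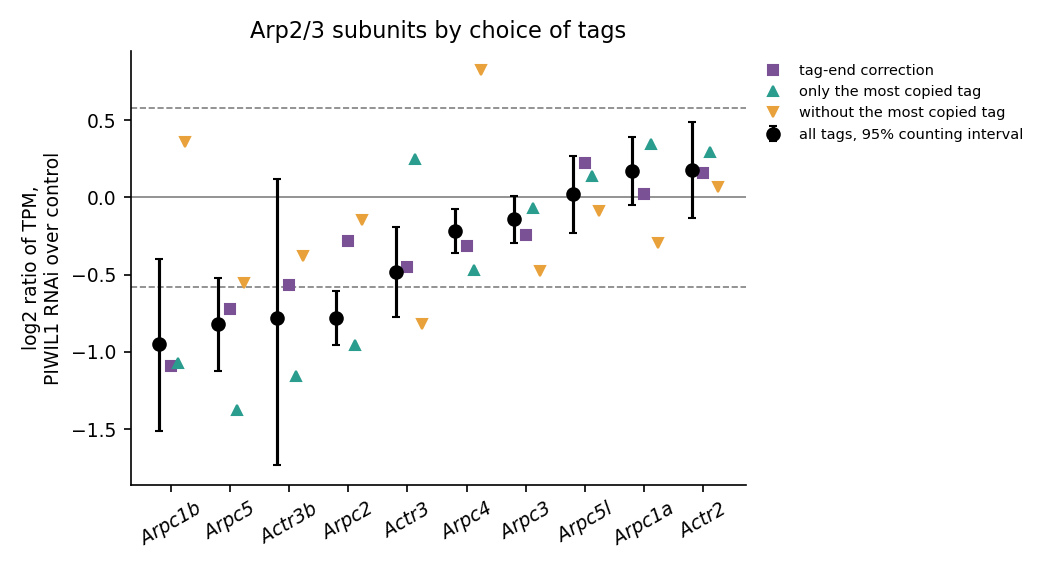
Log2 ratio of TPM (PIWIL1 RNAi over control) for each subunit and Actr3b, with black points for all tags and bars for the exact 95% counting interval, squares after the correction for tag ends, upward triangles for the most copied tag alone and downward triangles without it; dashed lines mark 0.58 in each direction. The marks of Arpc5 all lie below 0, those of Arpc2 run from -0.96 to -0.15, and those of Arpc4 lie on both sides of 0.

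The Arpc4 transcript gave tags with opposite ratios. Its most copied tag went from 779 to 557 copies (log2 ratio -0.45, -0.61 to -0.29), while the tag of site 4 went from 27 to 98 copies (1.90, 1.27 to 2.57). Sites 4 and 5 lie 8 bases apart, so their tags share 13 bases, and the stretch over both reads as follows, with the cut sites in capitals.
Arpc4, sites 5 and 4: CATGgccaCATGcgtctggtctggctagc
The tag of site 5 went from 31 to 24 copies (-0.33, -1.17 to 0.48), and that of site 7 from 36 to 45 (0.36, -0.31 to 1.03). Site 4 thus held 3.04% of the copies of Arpc4 in the control library (95% exact confidence interval 2.02 to 4.40) and 13.2% in the RNAi library (10.8 to 15.8). Tags with the same end, gc, had a median log2 ratio of 0.18. Without the site 4 tag Arpc4 had 860 and 645 copies and a log2 ratio of -0.38 (-0.53 to -0.23). For Actr3 the site 1 tag had 58 and 68 copies (0.27, -0.26 to 0.80), while the site 2 tag went from 67 to 34 (-0.94, -1.58 to -0.33) and the site 3 tag from 58 to 36 (-0.65, -1.29 to -0.03). All Actr3 tags but the first together had 185 and 102 copies (-0.82, -1.19 to -0.47).

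The mix of alternative subunits was compared within the libraries, where the total of tags plays no part. Arpc1b made up 20.6% of the copies of Arpc1a and Arpc1b in the control library (95% exact confidence interval 16.8 to 24.9) and 10.7% in the RNAi library (7.85 to 14.1). The log2 odds ratio was -1.12 (-1.73 to -0.52), and 0.65 (-1.61 to 3.03) without the most copied tag of each gene, which left 4 and 5 copies of Arpc1b. Both genes together had 412 and 402 copies, so the ArpC1 position was at 121.6 and 121.7 TPM (log2 ratio 0.00, -0.20 to 0.20). Arpc5l made up 50.3% of the copies of Arpc5 and Arpc5l in the control library (46.0 to 54.6) and 64.4% in the RNAi library (59.6 to 69.0), a log2 odds ratio of 0.84 (0.45 to 1.23). Without the most copied tag of each gene it was 0.46 (-0.04 to 0.97), so this shift rested in part on those tags. Together they had 535 and 413 copies (log2 ratio -0.34, -0.53 to -0.15).

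For the Arps, Actr3 made up 59.3% of the copies of Actr2 and Actr3 in the control library (54.3 to 64.1) and 48.0% in the RNAi library (42.7 to 53.4), a log2 odds ratio of -0.65 (-1.08 to -0.23). With the most copied tag of each gene alone it was -0.05 (-0.76 to 0.67). Actr3b, the second Arp3 gene, had 30 and 17 copies, or 8.86 and 5.15 TPM, and its log2 ratio of -0.78 (-1.73 to 0.12) did not pass the test. It made up 11.0% of the copies of Actr3 and Actr3b in the control library (7.54 to 15.3) and 9.09% in the RNAi library (5.39 to 14.2), so a shift between them was not detectable at this depth. All 9 subunits together had 3731 and 2996 copies, or 1102 and 907 TPM.

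**Figure D4:**
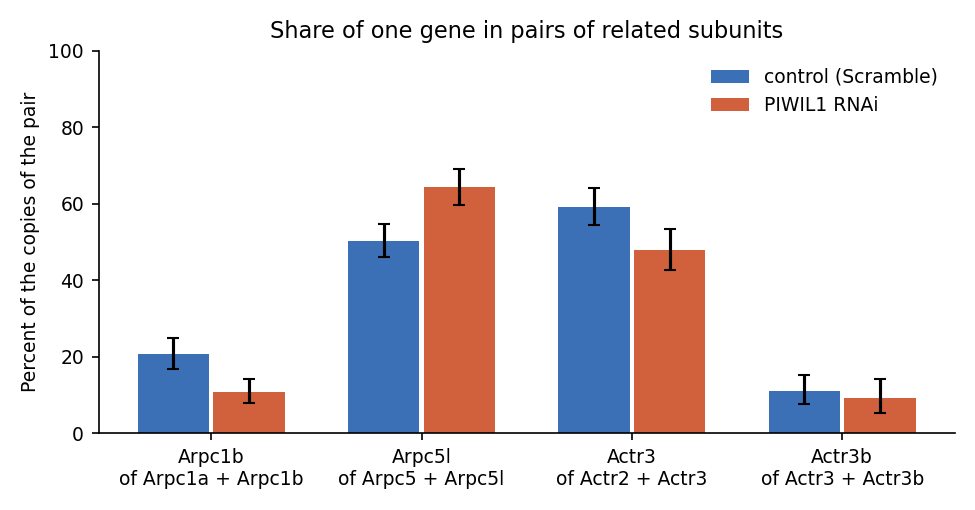
Share of one gene in the copies of a pair of related subunit genes, in percent from 0, with blue bars for the control library, orange bars for the PIWIL1 RNAi library and error bars for the exact 95% counting interval. The share of Arpc1b is lower in the RNAi library (10.7% against 20.6%), that of Arpc5l higher (64.4% against 50.3%), and the intervals of Actr3b overlap.

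Genes that switch the complex on or off, or build unbranched filaments, were read from lists of 53 genes, of which 36 had a value. One (2.78%) was called lower and 2 (5.56%) were called higher, against 5.97% and 2.96% of all genes, and 32 had copies on both sides of the comparison, with a median log2 ratio of 0.07. In the WAVE regulatory complex, which links Rac to Arp2/3, 7 of 9 genes had a value. Nckap1, a scaffold of that complex, was called lower, from 635 to 377 copies (log2 ratio -0.72, -0.90 to -0.53) with an FDR of 3.91e-12 in Fisher's exact test. Of its 6 tags past 20 copies, 4 were lower. After the tag-end correction its log2 ratio was -0.55 and it was not called. Wasf1, the WAVE1 protein that binds Arp2/3, had 826 and 975 copies (0.28, 0.14 to 0.41), and Brk1, the smallest WAVE complex subunit, had 717 and 967 copies (0.47, 0.33 to 0.61). Both had a small FDR (0.000161 and 1.26e-10 by Fisher's exact test), and neither reached the ratio threshold.

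Among the WASP proteins and their WIP partners 4 of 5 genes had a value and 2 were called higher. Wasl encodes N-WASP, which binds and activates the complex downstream of Cdc42. It rose from 114 to 204 copies, or from 33.66 to 61.76 TPM (log2 ratio 0.88, 0.54 to 1.22, FDR 1.36e-06 by Fisher's exact test). It had 1 tag with at least 20 copies, which went from 88 to 180, and without it the log2 ratio was -0.08. Wipf2, a partner of N-WASP, was not listed in the control library and had 8 copies with RNAi (FDR 0.0238 by Fisher's exact test). Wipf3, the other gene with the most copies, had 19 and 6 (-1.63, -3.24 to -0.25, FDR 0.0794 by Fisher's exact test).

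No gene of the other lists was called. In the WASH complex, which acts on endosomes, 3 of 5 genes had a value, led by Washc1 with 184 and 228 copies (log2 ratio 0.35) and Washc3 with 159 and 168 (0.12). On the list of other activators and branch stabilisers 4 of 6 had a value, led by Cttn (cortactin) with 429 and 476 copies (0.19). Ctnnd1 came next, with 71 and 68 (-0.03). It encodes a catenin, and its place on this list is not evidence of such a role. Of the inhibitors and branch-removing proteins 8 of 10 had a value, and the most copied were Coro1c with 392 and 365 copies (-0.07) and Coro1a with 227 and 211 (-0.07). All 5 upstream GTPases with a value lay between 0.21 and 0.24, among them Cdc42 with 348 and 401 copies and Arf6 with 249 and 283. Of the formins and Ena/VASP proteins, which build unbranched filaments, 5 of 12 had a value, and Evl had 857 and 847 copies (0.02) and Daam1 230 and 274 (0.29).

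**Figure D5:**
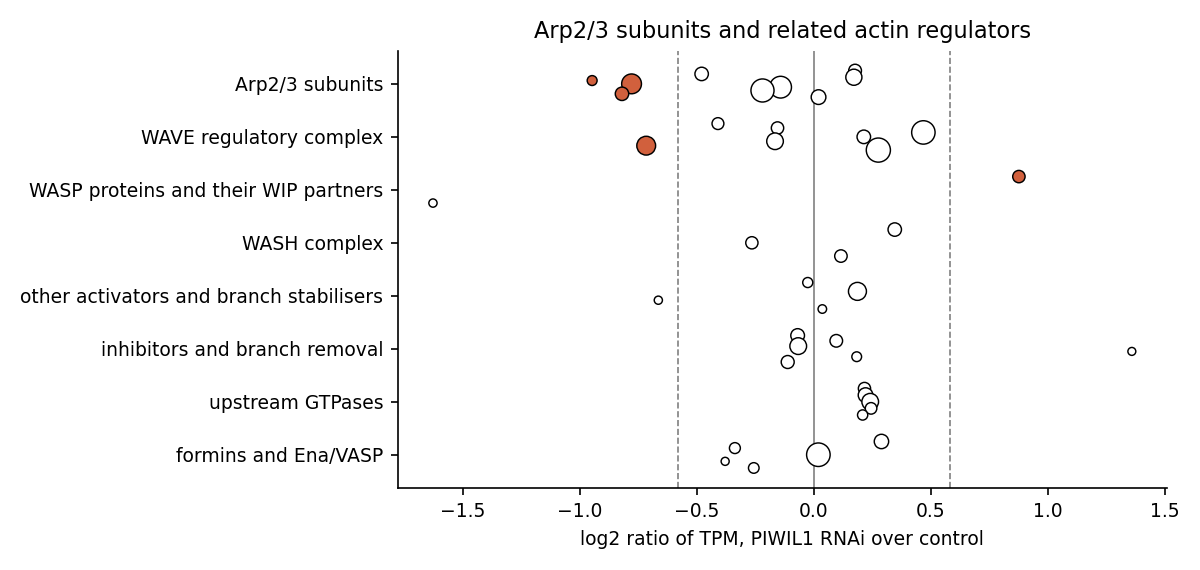
Log2 ratio of TPM (PIWIL1 RNAi over control) of the subunits and of each list of related actin regulators, for genes listed in both libraries; points grow with copies, filled points were called and dashed lines mark 0.58 in each direction. Of the subunits 3 are filled on the lower side, beside Nckap1 (-0.72) among the WAVE genes and Wasl (0.88) on the higher side.

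Bulk RNA cannot tell fewer cells of a type from less RNA per cell, so markers of the cell types that a cortical culture can hold were read beside the subunits. All 8 neuron markers were listed, with a summed level of 4212 TPM in the control library and 3759 TPM in the RNAi library, led by Stmn2 (7484 and 5678 copies) and Gap43 (2670 and 3541 copies). Snap25 was called lower among them (log2 ratio -0.72). Of the 8 markers 5 had a lower level with RNAi, Tubb3 (-0.49) and Nefm (-0.50) among them, and the median log2 ratio was -0.43. Of all genes listed in both libraries 56.7% were lower. Besides Gap43, the markers that were not lower were Dcx, with 1337 and 1365 copies (0.07, -0.04 to 0.18), and Rbfox3, with 8 and 8. Of the Gap43 copies 74.4% lay on tags ending in 8 or more A, and the other 7 markers summed to 3424 and 2687 TPM. Of 8 radial glia and astrocyte markers 7 were listed, with 1065 and 1354 TPM, led by Vim (2674 and 3724 copies) and Sox2 (320 and 260 copies), and Aqp4 had no value. The higher sum came from Vim, since the other 6 markers summed to 275 and 226 TPM, 5 of the 7 were lower and their median log2 ratio was -0.26. Fibroblast and meningeal markers were all listed, with 547 and 526 TPM, led by Col1a1 (1254 and 1143 copies) and Col3a1 (379 and 355 copies).

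Of 12 microglia and macrophage markers, cells in which Arpc1b is known to be abundant, 9 were listed. Cd68 made up most of their sum of 851 and 2227 TPM, with 2777 and 7238 copies (log2 ratio 1.42), of which 99.3% lay on tags ending in 8 or more A. Its most copied tag ended in 11 A, an end with a median log2 ratio of 1.52. The other 8 markers together had 30.7 and 35.4 TPM, each with at most 33 copies, led by Tyrobp with 32 and 33, and none of them was called. Cx3cr1, Ptprc and Itgam had no value. Endothelial and pericyte markers summed to 2.95 and 1.52 TPM (2 of 8 listed, Pdgfrb with 10 and 3 copies and Flt1 with 0 and 2), and oligodendrocyte lineage markers to 7.98 and 4.24 TPM (6 of 6 listed, led by Olig1 with 6 and 6 copies and Mbp with 7 and 4). The part of any of these cell types in the ratios of the subunits was not tested.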

How the data were processed

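For each gene the authors deposited a raw count, the sum of the copies of its tags, and TPM per the file headers, which is the CPM of clean tags and is not scaled to length. The submitters' processing notes name the genome build rn4, and the program that matched tags to RefSeq transcripts is not given in the sources used here. The libraries held 1947600 (control) and 1865913 (RNAi) copies on genes, 57.5% and 56.5% of 3386865 and 3303360 clean tags recovered from TPM. The limit of 3 copies was 0.886 and 0.908 TPM, and no listed tag had under 2 copies. Since rn4 was not at hand, no positions are given, and symbols came from the GRCr8 RefSeq table by accession (9337 of 9894 genes, 94.4%).

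Copies of each gene were set against all other copies on genes by Fisher's exact test (two-sided), a test between 2 libraries, and p-values were adjusted over 9894 genes by the Benjamini-Hochberg method (FDR). Log2 ratios come from TPM, with Clopper-Pearson intervals at 95%. Log2 odds ratios have exact conditional intervals. The tag-end correction grouped tags that end in 3 or more A by how many, and all others by the final 2 bases. It took the median log2 ratio of tags with at least 20 copies (0.5 added) relative to all tags on one part of the genes, and removed it from the other part. The members and lists were chosen with earlier results of these data known. Named genes are the subunits, Actr3b, every called gene of the regulator lists and the 2 most copied of each list. Snap25, Tubb3, Nefm, Dcx and Rbfox3 were added after their values were seen. No genes are named for a like pattern, because 2 libraries give 1 ratio per gene. Leaving out the most copied tag was added after the data were seen. Python 3.11.15, NumPy 2.4.6, pandas 2.3.3, SciPy 1.17.1, Matplotlib 3.10.9, R 4.3.3, edgeR 4.0.16 and DESeq2 1.42.0 were used.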

Additional observations from a re-analysis of the deposited data

How the results depend on the processing

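The calls of Arpc1b, Arpc2 and Arpc5 (3 lower, 0 higher) were kept with all clean tags as totals, TMM factors, DESeq2 size factors, at least 10 copies, 1 copy added or put back, copies summed per symbol, without tags ending in 8 or more A, and from the most copied tag alone. At an FDR of 0.001 Arpc2 and Arpc5 were kept, and after the tag-end correction Arpc1b and Arpc5. At a log2 threshold of 1 no subunit was called (0). Where edgeR's exact test assumed a coefficient of variation of 0.1, 1 was called, and with 0.2 and with 0.4 there were 0, and also 0 at an unadjusted p under 0.05. Without the most copied tag 1 was lower and 1 higher. Over all genes (591 lower, 293 higher) the numbers were 257 and 163 at an FDR of 0.001, 262 and 146 at a log2 threshold of 1, 371 and 185 after the tag-end correction, 250 and 128 without the most copied tag, and 170 and 114, 2 and 15, and 0 and 0 with coefficients of 0.1, 0.2 and 0.4, where 114 genes had an unadjusted p under 0.05 at 0.4. Of the listed regulators (1 lower, 2 higher), 0 were lower with each of the 3 coefficients, at a log2 threshold of 1 and after the tag-end correction. The higher ones fell to 1 with 1 copy added or put back, at an FDR of 0.001, at least 10 copies, a log2 threshold of 1, a coefficient of 0.1 or without the most copied tag, and to 0 with 0.2 or 0.4.

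The direction turned for Actr3 from the most copied tag alone (log2 ratio 0.25), and without that tag for Arpc1a (-0.29), Arpc1b (0.36), Arpc4 (0.82), Arpc5l (-0.090) and Wasl (-0.078). For these pairs the log2 odds ratio without the most copied tag was 0.65 for Arpc1b (-1.61 to 3.03), 0.44 for Actr3b (-1.04 to 1.87) and 0.46 for Arpc5l (-0.04 to 0.97), and from that tag alone -0.047 for Actr3 against Actr2. Fewer copies enter these values, and the cause was not tested further. Of the 144 values of the subunits under alternatives, 123 kept direction and call. Many of these could not have changed. Other thresholds, assumed coefficients, all clean tags as totals, at least 10 copies and summing per symbol left the ratio of each subunit as it was. Stricter thresholds also cannot alter a subunit that was not called. The count is therefore no measure of robustness. With 1 library per condition no library could be left out. No paired analysis was possible because each condition had 1 library. Depth limited Actr3b and the tags of Arpc1b beyond the first.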
